A study of Homo sapiens with 6 samples.

Results

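The miR-99, let-7 and miR-125 families are encoded side by side in clusters that vertebrates carry in several copies. The members described here are 10 mature miRNAs out of 2588 listed in the count table. They were taken by name. From the miR-99b/let-7e/miR-125a cluster on chromosome 19 they are 5 products, miR-99b-5p, miR-99b-3p, miR-125a-5p, miR-125a-3p and let-7e-5p. A further product of this cluster, let-7e-3p, is not among the members. The paralogs are miR-99a-5p, let-7c-5p, miR-100-5p, miR-125b-5p and miR-125b-1-3p. Small RNA was sequenced from Caco-2 cells, an established colorectal adenocarcinoma line for which the labels name no treatment, as 3 input libraries and 3 libraries of RNA immunoprecipitated with an antibody against 7-methylguanosine (m7G-RIP). In the protocol of the study the RNA was decapped and heat-denatured, an aliquot was kept as input, and bound RNA was eluted with 7-methyl-GTP. The question was which miRNAs carry internal m7G. No library of a control antibody was analysed here, so retention by m7G and retention by other properties of an RNA cannot be told apart. The labels do not say whether the 3 libraries of a group came from separate cultures, so the p-values measure the spread between these libraries only.

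A hairpin precursor is cut by DROSHA and then by DICER into a duplex of a 5p and a 3p arm, of which usually 1 arm is loaded into an Argonaute protein and kept. The loaded miRNA finds its target mRNAs mainly through its seed, bases 2 to 8. let-7 miRNAs are known for repressing growth-promoting mRNAs such as HMGA2 and those of the RAS genes, miR-125 is the vertebrate counterpart of the nematode lin-4, and miR-99 and miR-100 are known repressors of MTOR. METTL1, the m7G methyltransferase of tRNAs, is the enzyme that the study examined for m7G in miRNAs.

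The sequences are shown because closely related members differed in m7G-RIP although they differ by few bases. They are the RefSeq mature sequences (GRCh38.p14), written 5′ to 3′, with the seed in capitals.
hsa-miR-99b-5p: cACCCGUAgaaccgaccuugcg
hsa-miR-99a-5p: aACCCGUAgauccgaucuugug
hsa-miR-100-5p: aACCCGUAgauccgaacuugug
hsa-let-7e-5p: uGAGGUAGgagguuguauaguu
hsa-let-7c-5p: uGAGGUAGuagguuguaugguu
hsa-let-7a-5p: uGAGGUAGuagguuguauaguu
hsa-miR-125a-5p: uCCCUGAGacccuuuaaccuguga
hsa-miR-125b-5p: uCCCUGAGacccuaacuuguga
hsa-miR-99b-3p: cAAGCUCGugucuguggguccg
hsa-miR-125a-3p: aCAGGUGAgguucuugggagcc
hsa-miR-125b-1-3p: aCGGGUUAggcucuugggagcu

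The 7 members from 5p arms fall into 3 seeds. miR-99b-5p, miR-99a-5p and miR-100-5p share ACCCGUA, let-7e-5p and let-7c-5p share GAGGUAG with the rest of the let-7 family, and miR-125a-5p and miR-125b-5p share CCCUGAG. Counting positions from 1 at the 5′ end, miR-99a-5p differs from miR-100-5p by U16A alone, let-7e-5p differs from let-7a-5p by G9U alone, and let-7e-5p differs from let-7c-5p by G9U and A19G. miR-99b-5p differs from miR-99a-5p at 4 positions (C1A, A11U, C16U and C21U). miR-125a-5p is 24 bases long and lies 3 edits from miR-125b-5p, which has 22 bases.

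In GRCh38 the chromosome 19 cluster spans 728 bases of the plus strand, from 51692612 to 51693339. MIR99B (51692612 to 51692681) and MIRLET7E (51692786 to 51692864) lie in an intron of SPACA6, and MIR125A (51693254 to 51693339) overlaps a SPACA6 exon. All 3 hairpins also lie opposite an exon of the antisense gene SPACA6-AS1 in GENCODE. The paralogs miR-99a and let-7c come from chromosome 21, where MIR99A (16539089 to 16539169) lies in an intron and MIRLET7C (16539828 to 16539911) overlaps an exon of the long noncoding RNA gene MIR99AHG. MIR100 (122152229 to 122152308) and MIR125B1 (122099757 to 122099844) lie in introns of MIR100HG on the minus strand of chromosome 11. miR-125b-5p has 2 loci, MIR125B1 and MIR125B2, the latter on chromosome 21 from 16590237 to 16590325, within an exon of MIR99AHG.

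Counts on miRNAs summed to 16466178 to 19628046 per input library and to 1654102 to 3105129 per m7G-RIP library. Levels are given as CPM, counts scaled to a library size with TMM factors, per 1e6, and 3 counts correspond to 0.235 to 0.262 CPM in the input and to 0.676 to 1.11 CPM in m7G-RIP. Such floors cover counting error only. Of the miRNAs listed, 800 passed the filter on low counts. The 6 intestinal or epithelial marker miRNAs all averaged over 100 CPM in the input, while 2 of 11 markers of other cell types did, the muscle miRNA miR-1-3p and the mesenchymal miR-143-3p. The summed level of these 11 was 862 to 940 CPM in the input and 634 to 916 CPM in m7G-RIP, that of the 6 epithelial markers 109000 to 117000 CPM and 37600 to 46600 CPM, and the liver miRNA miR-122-5p had 0 counts in all libraries. The part of these markers in the results was not tested. For a marker level in the bulk RNA of this line, expression in few of its cells and low expression per cell cannot be told apart.

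In the input, miR-99b-5p was the most abundant member with 2551 ± 23.9 CPM (SD, n = 3), the 46th of all listed miRNAs. miR-125a-5p and let-7e-5p followed with 813 ± 80.3 and 727 ± 44.6 CPM (SD, n = 3), and their ranges overlapped. Among the paralogs miR-99a-5p led with 339 ± 17.7 CPM, before let-7c-5p with 149 ± 18.7, miR-100-5p with 116 ± 3.69 and miR-125b-5p with 30.3 ± 4.38 (SD, n = 3). Of the 3p arms, miR-99b-3p reached 177 ± 7.67 CPM, which overlapped let-7c-5p, miR-125a-3p 13.3 ± 2.37 CPM and miR-125b-1-3p 0.697 ± 0.0703 CPM (SD, n = 3). Adaptor ligation favours some ends over others, so levels of different miRNAs are compared here as counts and not as molecules.

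In m7G-RIP the order was another. let-7e-5p stood first with 6510 ± 1069 CPM (SD, n = 3), the 18th of all listed miRNAs, and miR-99b-5p next with 6351 ± 809 CPM (SD, n = 3), with overlapping ranges. miR-125a-5p was the third with 1502 ± 287 CPM and let-7c-5p the fourth with 374 ± 71.2 CPM (SD, n = 3). The ranges of miR-125a-3p, miR-99b-3p and miR-100-5p, at 122, 99.2 and 90.6 CPM on average, overlapped between neighbours. miR-99a-5p, the fourth in the input, came eighth in m7G-RIP with 29.8 ± 3.24 CPM (SD, n = 3).

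**Figure D1:**
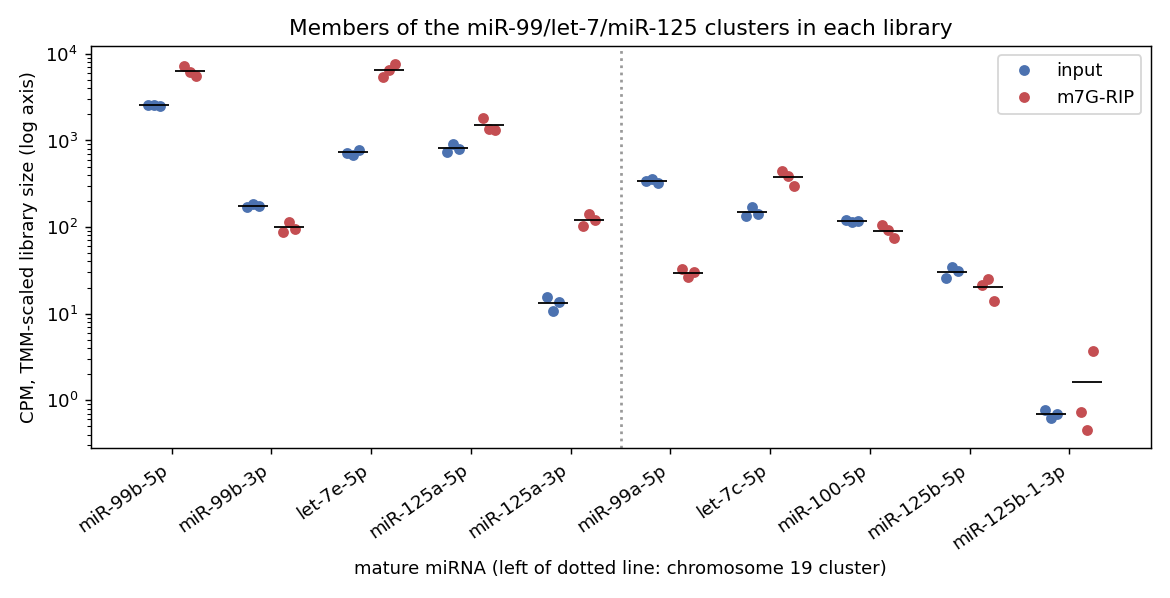
CPM of the 10 members (log axis) in each of the 3 input (blue) and 3 m7G-RIP (red) libraries, with the group mean as a line; members of the chromosome 19 cluster stand left of the dotted line. let-7e-5p and miR-125a-3p lie far higher in m7G-RIP, miR-99a-5p far lower, and miR-125b-1-3p overlaps between the groups.

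Of the 10 members 9 were tested, and miR-125b-1-3p was not. In m7G-RIP 5 were enriched (let-7e-5p, miR-125a-3p, let-7c-5p, miR-99b-5p and miR-125a-5p) and 2 depleted (miR-99a-5p and miR-99b-3p) at 0.05 after adjustment by Benjamini and Hochberg over the 800 miRNAs tested, from the quasi-likelihood F test of edgeR. SE below is the standard error of a log2 value. Over all 800 miRNAs 40.1% were enriched and 38.1% depleted, so many miRNAs of the table were called in either direction. The median log2 enrichment of the 9 members was 0.88, against 0.16 over all miRNAs tested. In the chromosome 19 cluster 4 of 5 members were enriched and 1 was depleted, with a median of 1.32. Of the 4 paralogs tested, 1 was enriched and 1 depleted, with a median of -0.46. These tallies leave out products that are not members. The 2 of those that were tested, let-7e-3p of chromosome 19 and miR-125b-2-3p, were both depleted (log2 enrichment -1.78 and -1.81). Total-count and upper-quartile scaling moved the median of all miRNAs by 1.09 and 0.82 on the log2 scale, and DESeq2's size factors by -0.34. The split of all calls, 321 enriched and 305 depleted, became 442 and 198 under total-count scaling and 418 and 227 under upper-quartile scaling. Values near 0 therefore depend on the scaling, whereas ratios of 2 members within a library do not.

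let-7e-5p had the largest absolute gain in CPM of all members. Its level was 719, 686 and 775 CPM in input replicates 1, 2 and 3, and 5460, 6473 and 7596 CPM in m7G-RIP replicates 1, 2 and 3. Every m7G-RIP library lay far above every input library, and the m7G-RIP libraries were spread more widely than the input. The log2 enrichment was 3.16 (SE 0.16; edgeR, adjusted p = 1.13e-09), an 8.96-fold difference that exceeded 88.0% of the 800 miRNAs tested. It lay between 2.82 with DESeq2's size factors and 4.28 with total counts.

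miR-99b-5p, whose hairpin lies just upstream of let-7e, rose less. It had 2546, 2577 and 2530 CPM in the input and 7206, 6250 and 5598 CPM in m7G-RIP (replicates 1, 2 and 3). The groups did not overlap, and m7G-RIP replicate 3, the highest library for let-7e-5p, was the lowest for miR-99b-5p. Its log2 enrichment was 1.32 (SE 0.14; edgeR, adjusted p = 1.69e-06), a 2.49-fold difference.

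miR-125a-5p, the most downstream product, had 740, 899 and 801 CPM in the input and 1832, 1353 and 1319 CPM in m7G-RIP. All m7G-RIP libraries were above the input, by a log2 enrichment of 0.88 (SE 0.16; edgeR, adjusted p = 0.000229). The value fell to 0.53 with DESeq2's size factors and was 1.98 with total counts, still past the threshold in both.

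The opposite arms of these hairpins differed from the 5p arms in the size of the change or in its direction. miR-125a-3p, the minor arm of its hairpin, had 15.5, 10.8 and 13.6 CPM in the input, on 138 to 182 counts, and 103, 140 and 122 CPM in m7G-RIP, on 330 to 620 counts. It gained more than its own 5p arm, with a log2 enrichment of 3.19 (SE 0.22; edgeR, adjusted p = 1.86e-08), a 9.13-fold difference. miR-99b-3p had 169, 184 and 177 CPM in the input and 87.1, 115 and 95.4 CPM in m7G-RIP. It was depleted while its 5p arm was enriched, with a log2 enrichment of -0.83 (SE 0.17; edgeR, adjusted p = 0.000485), although with total counts the value turned to 0.27 and with upper-quartile factors it was -0.01, neither of them called. let-7e-3p, not among the members, had 87, 89 and 86 counts in the input and 8, 17 and 0 counts in m7G-RIP, a log2 enrichment of -1.78 (SE 0.57; edgeR, adjusted p = 0.0119), opposite in sign to let-7e-5p.

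Ratios of both arms within a library are free of the scaling. There were 14.5 counts of miR-99b-5p for each count of miR-99b-3p in the input (geometric mean) and 64.0 in m7G-RIP, a 4.43-fold higher ratio (difference 2.15 on the log2 scale, SD 0.06 in the input and 0.32 in m7G-RIP). For miR-125a the ratio of 5p to 3p went the other way, from 61.4 to 12.3, a difference of -2.32 on the log2 scale (SD 0.40 and 0.46). The miR-125a-3p arm made up 1.64% ± 0.434 (SD, n = 3) of the counts of its hairpin in the input and 7.71% ± 2.1 (SD, n = 3) in m7G-RIP, and the miR-99b-3p arm 6.47% ± 0.232 and 1.56% ± 0.323 (SD, n = 3). In both hairpins the ratios of the 3 m7G-RIP libraries lay wholly outside those of the input.

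The paralogs on chromosomes 21 and 11 showed the widest range. miR-99a-5p had 337, 357 and 322 CPM in the input, on 3692 to 4562 counts, and 32.8, 26.3 and 30.2 CPM in m7G-RIP, on 82 to 135 counts. It was the most depleted member, with a log2 enrichment of -3.51 (SE 0.17; edgeR, adjusted p = 8.49e-10), 11.4-fold lower in m7G-RIP. The sign held under the 3 other scalings, from -3.86 with DESeq2's size factors to -2.41 with total counts.

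miR-100-5p, which differs from miR-99a-5p by U16A, had 120, 113 and 116 CPM in the input and 105, 91.4 and 75.2 CPM in m7G-RIP. These libraries were lower than the input by little, and the log2 value of -0.36 (SE 0.17; edgeR, adjusted p = 0.0769) did not pass the threshold. It was called depleted without m7G-RIP replicate 1 or without m7G-RIP replicate 2 (-0.51 in both), with DESeq2's size factors or its Wald test (-0.70 in both), without a filter (-0.66) and with at least 10 counts in every library (-0.49). In the other direction it turned to 0.73 under total-count and 0.47 under upper-quartile scaling, called enriched in both. There were 2.92 counts of miR-99a-5p for each of miR-100-5p in the input and 0.332 in m7G-RIP, an 8.80-fold lower ratio whose difference, -3.14 on the log2 scale (SD 0.10 in the input and 0.25 in m7G-RIP), does not depend on scaling. The 2 sequences hold the same number of G, 5 of 22 bases, and the same seed. How reads with an error at position 16 were shared between both was not tested.

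miR-99b-5p and miR-99a-5p, paralogs with 4 differences, changed most of the pairs compared. Their ratio was 7.54, 7.21 and 7.85 in the input libraries and 219, 236 and 184 in m7G-RIP, a 28.2-fold change (4.82 on the log2 scale). As a share of the 5p counts of this family, miR-99b-5p rose from 84.9% ± 0.35 to 98.1% ± 0.0168 (SD, n = 3), while miR-99a-5p went from 11.3% ± 0.438 to 0.463% ± 0.0599 and miR-100-5p from 3.86% ± 0.151 to 1.39% ± 0.0667 (SD, n = 3). The summed family, which does not depend on how reads were split among its members, had a log2 enrichment of 1.08 (SE 0.16; edgeR, adjusted p = 3.86e-05). miR-10a-5p and miR-10b-5p, relatives of this family with another seed, were both depleted under TMM scaling, with log2 values of -0.46 and -0.56 (SE 0.17 and 0.18; edgeR, adjusted p = 0.0234 and 0.0111). Values this near 0 depend on the scaling, as total-count and upper-quartile scaling raised the median of all miRNAs by 1.09 and 0.82.

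let-7c-5p had 134, 170 and 143 CPM in the input and 438, 387 and 298 CPM in m7G-RIP. It was higher in every m7G-RIP library, by a log2 enrichment of 1.33 (SE 0.18; edgeR, adjusted p = 1.67e-05), less than let-7e-5p. The ratio of let-7e-5p to let-7c-5p was 5.35, 4.03 and 5.42 in the input and 12.5, 16.7 and 25.5 in m7G-RIP, 3.57-fold higher. The 7 other let-7 5p miRNAs, miR-98-5p included, had a median log2 enrichment of 0.63. Of these 7, 5 were enriched and none depleted (0 of 7), against 40.1% enriched and 38.1% depleted of all 800 miRNAs tested. Values near 0 among them depend on the scaling. let-7b-5p was the closest to let-7e-5p with 2.93, let-7a-5p had 1.71, let-7d-5p 1.00, let-7f-5p 0.63 and miR-98-5p 0.59, while let-7g-5p, at -0.15 (adjusted p = 0.439), and let-7i-5p, at 0.999-fold of the input (adjusted p = 0.993), did not pass the threshold. let-7e-5p thus made up 1.56% ± 0.2 of the let-7 5p counts in the input and 7.3% ± 2.12 in m7G-RIP, let-7a-5p 24.7% ± 0.766 and 41.6% ± 1.05, and let-7g-5p 22.5% ± 1.87 and 10.5% ± 0.764 (SD, n = 3). let-7a-5p and let-7f-5p have 3 and 2 loci, so every share of this pool depends on how reads with several loci were counted, and near-identical members may share reads. With counts divided by the number of loci, a setting chosen after seeing the data, the share of let-7e-5p was 2.35% ± 0.349 in the input and 12.4% ± 3.23 in m7G-RIP (SD, n = 3), and that of let-7a-5p 12.4% ± 0.642 and 23.6% ± 1.19 (SD, n = 3). The summed let-7 5p counts had a log2 enrichment of 0.93 (SE 0.17; edgeR, adjusted p = 0.000323), and of 0.76 with counts divided by loci.

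**Figure D2:**
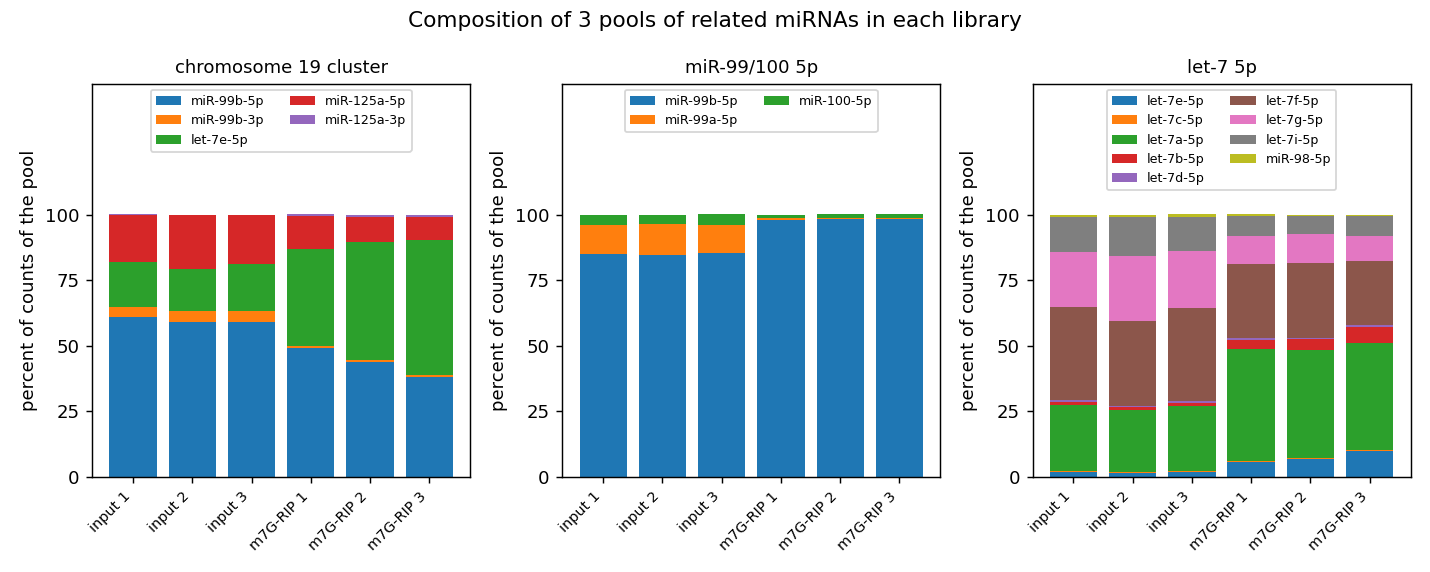
Share of counts (percent) of each miRNA within 3 pools of related miRNAs, as a stacked bar for each of the 3 input and 3 m7G-RIP libraries. With counts as deposited, let-7e-5p takes in m7G-RIP a larger share of the chromosome 19 cluster and of the let-7 5p pool, and miR-99a-5p goes from 11.3% to 0.463% of the miR-99/100 pool on average.

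miR-125b-5p had 25.7, 34.5 and 30.7 CPM in the input and 21.4, 25.4 and 14.0 CPM in m7G-RIP, on 302 to 440 and 38 to 113 counts. The highest m7G-RIP library, 25.4 CPM, lay just under the lowest input library, 25.7 CPM, and the log2 value of -0.56 (SE 0.26; edgeR, adjusted p = 0.0617) did not pass the threshold. It was called depleted without m7G-RIP replicate 1 (-0.62) or m7G-RIP replicate 2 (-0.91), with DESeq2's size factors or its Wald test (-0.91 in both), without a filter (-0.87) and with at least 10 counts in every library (-0.70). In the other direction it turned to 0.52 under total-count and 0.25 under upper-quartile scaling. The ratio of miR-125a-5p to miR-125b-5p rose from 28.7, 26.1 and 26.1 in the input to 85.3, 53.0 and 93.0 in m7G-RIP, 2.78-fold. Summed, both miR-125 5p miRNAs had a log2 enrichment of 0.82 (SE 0.18; edgeR, adjusted p = 0.000924), near that of miR-125a-5p, which made up 96.4% ± 0.19 of their counts in the input and 98.7% ± 0.433 in m7G-RIP (SD, n = 3).

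Of the 6 counts of miR-125b-5p, 5 were even numbers. Among counts from 1 to below 1000, 84.1% were even for miRNAs with 2 loci in RefSeq, against 46.6% for miRNAs with 1 locus. How reads with several loci were counted is not given in the sources used here. If each locus was counted, the level of miR-125b-5p is about 2 times too high, while its log2 value and the change of its ratios are unaffected by such a constant.

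miR-125b-1-3p was at the limit of the depth, with 9, 8 and 8 counts in the input and 3, 2 and 10 counts in m7G-RIP. Its groups overlapped, and a difference was not detectable at this depth. The other minor products of the paralogous hairpins were also rare. miR-125b-2-3p, with 36, 43 and 33 counts in the input and 5, 4 and 1 in m7G-RIP, was depleted (log2 enrichment -1.81, SE 0.55; edgeR, adjusted p = 0.00841). miR-99a-3p, let-7c-3p, miR-100-3p and let-7a-2-3p had at most 6 counts in any library and were not tested.

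**Figure D3:**
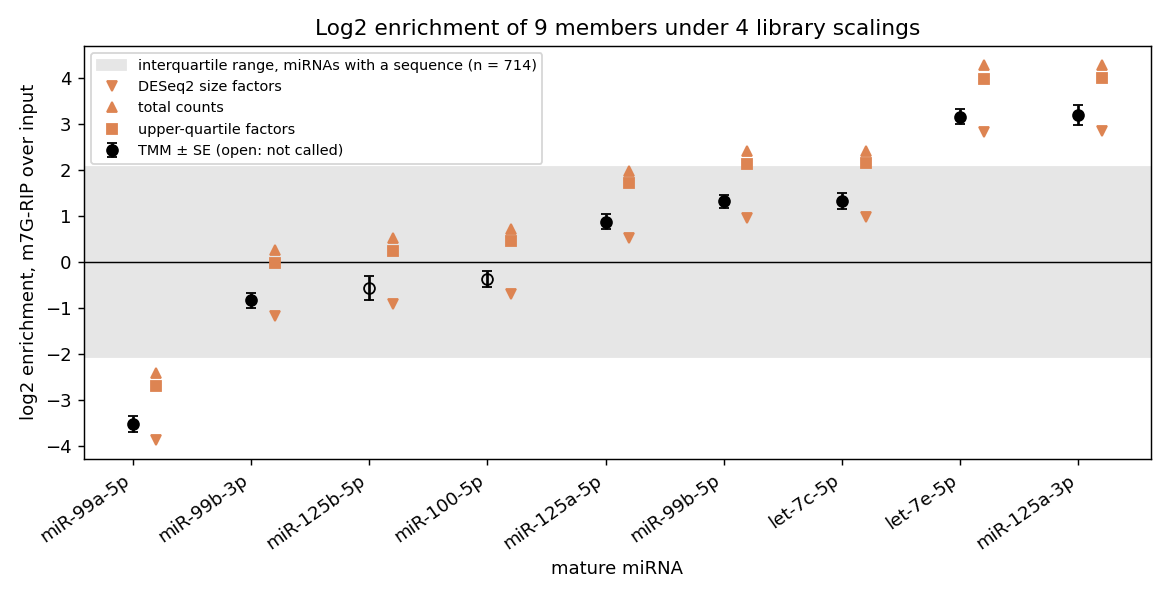
Log2 enrichment of m7G-RIP over input for the 9 members tested: black circles with standard errors are from TMM scaling (open circles did not pass the threshold), orange marks give other scalings and the grey band is the interquartile range of 714 tested miRNAs. Under all 4 scalings let-7e-5p stays at 2.82 or above, miR-125a-3p at 2.85 or above and miR-99a-5p at -2.41 or below, while miR-99b-3p, miR-125b-5p and miR-100-5p change sign with total counts and the last 2 also with upper-quartile factors.

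Within the chromosome 19 cluster the products of neighbouring hairpins differed in their proportions between input and m7G-RIP. For each count of miR-99b-5p there were 0.285 counts of let-7e-5p in the input and 1.02 in m7G-RIP (geometric means), a 3.59-fold higher ratio (1.84 on the log2 scale, SD 0.10 and 0.42). For each count of miR-125a-5p the counts of let-7e-5p rose from 0.895 to 4.35, by 4.85-fold. miR-99b-5p against miR-125a-5p changed least, from 3.15 to 4.26, a difference of 0.44 on the log2 scale (SD 0.13 and 0.12). let-7e-5p made up 17.0% ± 1.15 of the counts of the cluster's 5 members in the input and 44.6% ± 7.21 in m7G-RIP (SD, n = 3), and miR-99b-5p 59.6% ± 1.03 and 43.6% ± 5.53 (SD, n = 3).

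In all, 11 pairs of members were compared within libraries: 3 in the chromosome 19 cluster, 3 between arms and 5 between paralogs. In 10 of them no ratio of an m7G-RIP library fell within the range of the input. Over all 319600 pairs of tested miRNAs the same held for 74.9%, so such a separation was common in the table. Each of these 10 had p = 0.1 in the exact permutation test over the 6 libraries (two-sided), which is the smallest value that 3 against 3 libraries allow, and 0.11 after Benjamini-Hochberg adjustment over the 11 pairs, so none could pass the threshold in this design. The ratio of miR-125b-5p to miR-125b-1-3p, the remaining pair, overlapped between the groups (p = 0.3, exact permutation test), and its difference of -1.34 on the log2 scale was -0.27 without m7G-RIP replicate 3 and -2.09 without m7G-RIP replicate 2.

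**Figure D4:**
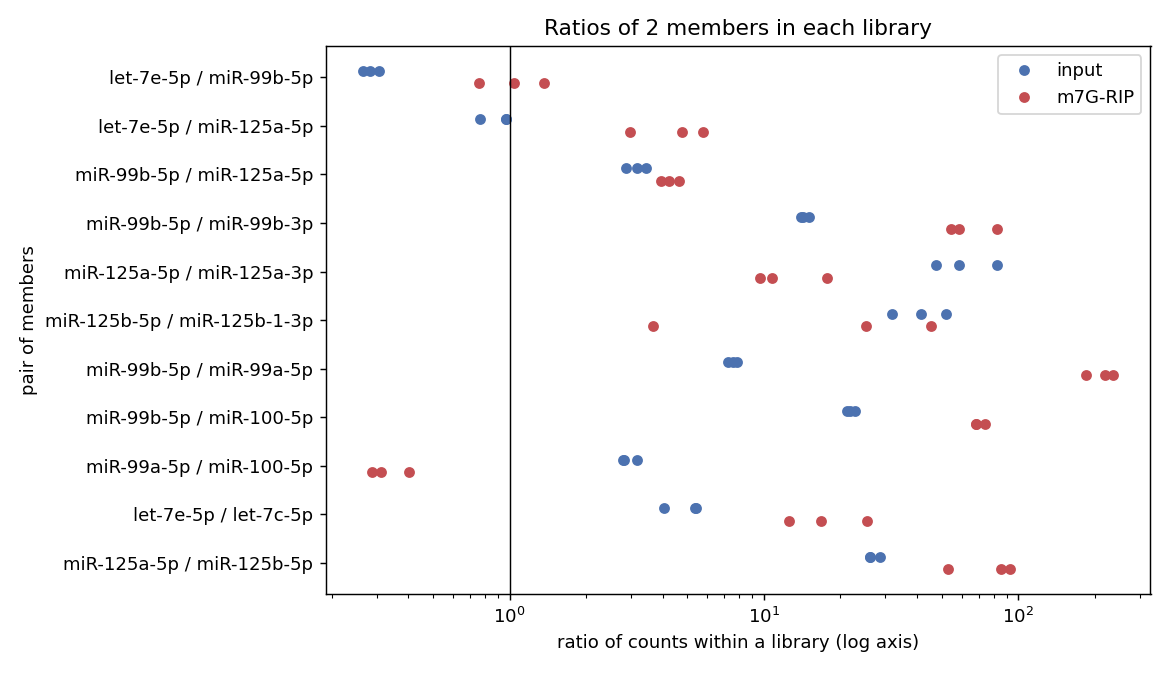
Ratio of the counts of 2 members within each library (log axis) for 11 pairs, with 3 input (blue) and 3 m7G-RIP (red) libraries per pair. In m7G-RIP the ratio of miR-99b-5p to miR-99a-5p lies at 184 to 236 against 7.21 to 7.85 in the input, and only the pair with miR-125b-1-3p overlaps.

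The mature sequences also differ in guanosine, the base that carries m7G. A GG step is a G followed by a G, counted with overlaps. let-7e-5p and let-7c-5p each hold 9 G and 3 GG steps in 22 bases, miR-125a-3p 9 G and 4 GG steps, and miR-99b-3p 8 G and 2 GG steps. The 5p members of the miR-99/100 and miR-125 families hold 4 or 5 G and no GG step (0), yet their log2 values ran from -3.51 for miR-99a-5p to 1.32 for miR-99b-5p. Across the 714 tested miRNAs with 1 RefSeq sequence, Spearman's rho between the percentage of G and log2 enrichment was 0.497, a description across miRNAs that share the same 6 libraries. The median log2 enrichment was -0.65 for 185 miRNAs with 0 GG steps, -1.40 for 178 with 1, -0.79 for 96 with 2, 0.91 for 84 with 3 and 2.77 for 171 with 4 or more. These medians hold for the main filter only, which a rare miRNA can pass by its m7G-RIP level alone. With at least 10 counts in every library 426 miRNAs were tested instead of 800. miR-99a-5p lay below the median of its class, miR-99b-3p, miR-125b-5p and miR-100-5p lay close to theirs, and the other tested members lay above.

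**Figure D5:**
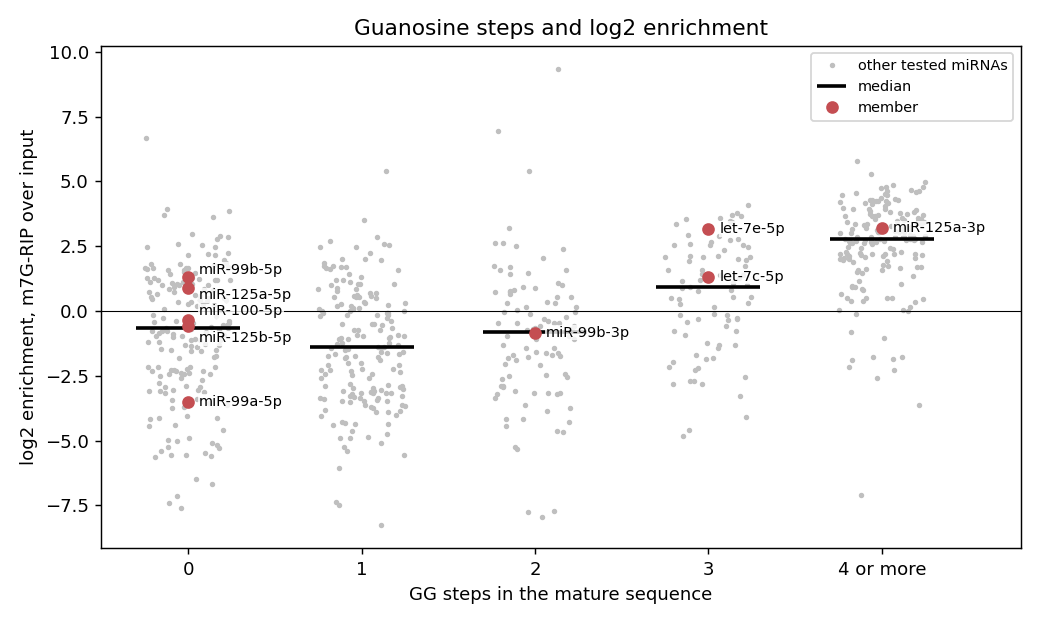
Log2 enrichment of m7G-RIP over input against the number of GG steps in the mature sequence, for 714 tested miRNAs (spread sideways at random), with the median of each class as a line, the 9 tested members in red and the rest in grey. Members without a GG step range from -3.51 to 1.32, and the positions relative to 0 of miR-99b-3p, miR-100-5p and miR-125b-5p depend on the scaling.

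Among the let-7 sequences G9U separates let-7e-5p (3 GG steps, log2 enrichment 3.16) from let-7a-5p (2 GG steps, 1.71). let-7b-5p, with 45.5% G and 3 GG steps, reached 2.93, while let-7g-5p, with 31.8% G and 1 GG step, had -0.15. The same 31.8% G and 1 GG step went with 0.63 for let-7f-5p and 0.59 for miR-98-5p. let-7i-5p and let-7d-5p have 36.4% G like let-7a-5p, but let-7i-5p (1 GG step) was at 0.999-fold of the input and let-7d-5p (2 GG steps) at a log2 value of 1.00. let-7c-5p has as many G and GG steps as let-7e-5p and a log2 enrichment of 1.33. The stretch AGGAGGU of let-7e-5p, searched as written and on the given strand only, occurs in 11 of 2281 listed miRNAs with a sequence (0.482%) and in no other member. Of these 11, 4 were tested, and all 4 were enriched, where 40.1% of all tested miRNAs were. let-7e-5p, the source of the stretch, is among the 4 and was known to be enriched. The filter on low counts can be passed in m7G-RIP alone, where fewer counts reach a given CPM. Rare holders may thus have been tested only because they were high there, so the count is no support for the motif. The stretch itself holds 2 GG steps, and the 3 others were miR-4709-3p (2 GG steps, log2 enrichment 6.95, SE 1.06), miR-6831-5p (4 GG steps, 3.38, SE 0.61) and miR-6851-5p (6 GG steps, 3.29, SE 0.67). The values of the last 2 lie near the median of 2.77 of the tested miRNAs with 4 or more GG steps. Nothing about the motif can be read from so few.

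The miRNAs whose profile over the 6 libraries was most like that of 3 members were found by the Euclidean distance between log2 CPM values centred on the input mean, among 257 other miRNAs whose log2 CPM averaged 5 or more. Nearest to let-7e-5p were miR-760 (distance 0.325), miR-1908-5p (0.403) and let-7b-5p (0.447). Nearest to miR-99b-5p were miR-375 (0.214), miR-191-5p (0.55) and let-7d-5p (0.57), and nearest to miR-125a-5p were miR-92a-3p (0.238), miR-625-3p (0.245) and miR-625-5p (0.246).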

How the data were processed

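Small RNA libraries from 3 input and 3 m7G-RIP samples of Caco-2 cells were analysed. The authors trimmed adaptors with Trimmomatic, mapped reads to GRCh38 and summarised them with featureCounts on mature miRNAs of miRBase 22. The methods name STAR as the aligner (at most 1 mismatch, several loci allowed) and the submitters' processing notes name Bowtie2, so the mismatch setting behind this table is uncertain. The authors deposited raw counts for each mature miRNA and library, neither normalized nor pooled. The reads carry no molecular identifiers.

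Libraries were grouped by their labels. The whole table was fitted with edgeR 4.0.16 in R 4.3.3 (filterByExpr with a minimum count of 10 and a minimum total of 15, TMM factors, quasi-likelihood test, Benjamini-Hochberg adjustment, call at 0.05). A standard error is the log2 value divided by the square root of F. For ratios within a library 0.5 was added to both counts. Permutation tests used scipy 1.17.1. Steps were tested on simulated data. Hairpins come from GENCODE release 44. Of 800 miRNAs tested, 714 had 1 RefSeq mature sequence; miR-10b-5p was among those without.

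The text names the 10 members, the other products and relatives of their clusters, and for 3 members the 3 most alike miRNAs. Members, lists and tests were chosen with earlier results of these data known. The holders of AGGAGGU were chosen after the sequences and values were seen. Replicates differed by more than sampling noise (chi-square over its degrees of freedom, 22.4 to 112). Alternatives were other scalings, filters and thresholds, DESeq2 1.42.0, the replicate block, leaving out each library and, chosen after seeing the data, dividing counts by the number of RefSeq loci.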

Additional observations from a re-analysis of the deposited data

How the results depend on the processing

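The number of enriched members, 5, was 6 under total-count or upper-quartile scaling and 5 under the other alternatives, among them the replicate block. The number of depleted members, 2, was 4 with DESeq2's size factors, in the DESeq2 Wald test, without a filter and with at least 10 counts in every library, 1 under total-count and 1 under upper-quartile scaling, and 2 to 4 with each library left out (4 without m7G-RIP replicate 1 or 2). Signs turned for miR-99b-3p with total counts (0.27), for miR-100-5p under total-count (0.73) and upper-quartile scaling (0.47), and for miR-125b-5p under total-count (0.52) and upper-quartile scaling (0.25), scalings that raised the median of all miRNAs by 1.09 and 0.82. Of 135 values of single members under other settings 117 kept their direction and side of the threshold, 12 passed it newly, 1 no longer passed it and 5 turned. All 45 values of the 3 summed families and all 99 differences of the 11 ratios kept direction and side, though no ratio could pass its threshold. Same-numbered libraries did not deviate together (correlations -0.0567, -0.054 and 0.0804). With so few libraries such deviations can be noise of each library alone, so whether the numbers pair them stays unknown. With the replicate block let-7e-5p had 3.15 and miR-99a-5p -3.51, the block changed no call of a member, and over all miRNAs 296 were enriched and 295 depleted; the sign-flip test on same-numbered ratios cannot go below 0.25. Dividing counts by the number of loci, chosen after seeing the data, changed no call of a member (let-7e-5p 3.12) and moved the share of let-7e-5p in the let-7 5p counts from 1.56% to 2.35% in the input and from 7.3% to 12.4% in m7G-RIP. Spearman's rho with the percentage of G was 0.482 with at least 10 counts in every library. The low m7G-RIP depth limits miR-125b-1-3p, which without a filter had a log2 value of 0.75 (adjusted p = 0.477 from the edgeR test).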
